A study of Mus musculus with 16 samples.

Results

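The cells described here are lymph node CD8 T cells whose T cell receptor was found in 2 or more cells of the lymph node and in no cell of the skin. They were set against lymph node cells whose receptor was found once. A clone was the set of cells with the same nucleotide sequence of the CDR3, the hypervariable receptor loop, in both the TRA and the TRB chain. Cells entered with 1 TRB and 1 or 2 TRA sequences, and the contig with most UMIs (unique molecular identifiers, which count captured molecules) stood for each chain. By this rule 2548 lymph node barcodes had a clone. Of these, 105 cells fell into 52 expanded clones, which is 4.19% of the cells of clones not found in skin. There were 51 expanded clones of 2 cells and 1 of 3 cells, so nearly every expanded clone was a pair. Another 2403 cells were each the only cell of their clone (single-cell clones), and 40 cells of 31 clones were left out because the receptor was also in skin. The gene table held 3266 cells, among them 100 cells of the 52 expanded clones (95.2% of 105) and 2007 cells of single-cell clones (83.5% of 2403). The table held at least 2 cells for 47 of the expanded clones, and 1 cell for the other 5.

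The mice were of the C57BL/6 strain and had melanoma-associated vitiligo, in which skin loses its pigment as immunity to a melanoma turns on normal pigment cells. They were 16 weeks old, and the tissue was taken 45 days after tumor surgery. The lymph node was the one draining the tumor; it was pressed apart mechanically and passed through a 40 µm filter, and CD8+CD44+ T cells were sorted. RNA and receptor libraries were made for lymph node and for skin, each sequenced on 4 lanes that share the library's cells. Both sides of the comparison therefore share mouse strain, disease, time, sort and library, and differ in how often the receptor was seen. With 1 lymph node RNA library, cells are not replicates and no test was possible. All intervals are exact 95% intervals that cover counting error only. How many mice contributed is not stated in the labels.

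Each T cell assembles its receptor genes once, by V(D)J recombination, and passes them to its daughters, so a shared receptor sequence normally marks descent from 1 cell. Enzymes trim and extend the segment ends at the joint, which makes it improbable for separate cells to build the same pair of chains. Antigen-experienced CD8 T cells carry CD44. They include long-lived memory cells that recirculate through lymph nodes, effector cells with cytotoxic granules, and tissue-resident cells. Virtual memory cells also carry CD44, which they acquire through cytokines without a foreign antigen. The labels do not say which of these a clone belonged to.

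The joints of 4 expanded clones are shown because they carry the definition of a clone: both chains were the same, base for base, in each of the clone's cells. They are the clone with 3 cells and the 3 clones with most UMIs in the gene table. Sequences run 5′ to 3′ from the deposited contig tables. Capitals mark bases found in neither the V nor the J germline segment of GENCODE M21, which are the bases contributed by D segments or added at the joint.
Clone 1 TRB: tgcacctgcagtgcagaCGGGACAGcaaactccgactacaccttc
Clone 1 TRA: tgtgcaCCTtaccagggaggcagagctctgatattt
Clone 2 TRB: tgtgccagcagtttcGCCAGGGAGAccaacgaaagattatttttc
Clone 2 TRA: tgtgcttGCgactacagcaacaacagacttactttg
Clone 3 TRB: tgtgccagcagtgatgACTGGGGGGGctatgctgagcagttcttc
Clone 3 TRA: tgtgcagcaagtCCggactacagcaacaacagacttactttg
Clone 4 TRB: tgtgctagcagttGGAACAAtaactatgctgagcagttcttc
Clone 4 TRA: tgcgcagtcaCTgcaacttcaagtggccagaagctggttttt
Clone 1, in 3 cells, joined TRBV1 (chr6:40891229-40891885, build mm10, plus strand) to TRBJ1-2 with 8 such bases, and TRAV7-3 (chr14:53443249-53443839, plus strand) to TRAJ15 with 3. Clones 2, 3 and 4 had 10, 10 and 7 of them in the TRB joint and 2 each in the TRA joint. Clones 2 and 3 used the same TRAJ7 segment next to different V segments, and their TRA sequences end alike.

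Cells of expanded clones were shallow. They held 691 to 9419 UMIs, with a median of 2592.5, against 545 to 11878 and a median of 4606 in single-cell clones. The quartiles of the sides did not overlap (1918.75 to 3464.5 against 3741.5 to 5516.5), although their full ranges did. Genes detected per cell had medians of 1032.5 and 1481. From 1500 UMIs upward, the share of cells that belonged to expanded clones was lower at greater depth. It went from 41 of 160 cells with 1500 to 2500 UMIs (25.6%, 19.1 to 33.1) to 5 of 764 cells with 4500 to 6000 UMIs (0.654%, 0.213 to 1.52). Below 1500 UMIs it was 6 of 45 cells (13.3%, 5.05 to 26.8). The 46 clones with exactly 2 cells in the table summed to a median of 5324 UMIs per clone (2316 to 13640); the median cell of a single-cell clone held 4606. The 3 cells of clone 1 held 1918, 1623 and 1303 UMIs, all below the lower quartile of single-cell clones. Lymph node cells of clones also in skin were as shallow, with a median of 2281 UMIs in 28 cells. Mitochondrial transcripts made up a median of 2.45% of UMIs in expanded and 2.59% in single-cell clones, and ribosomal protein genes 38.4% and 43.5%. Among cells of 1500 to 3500 UMIs, a window chosen after seeing the data, the latter shares were 38.2% and 37.1%. The low depth bears on every gene below. Whether the barcodes of a clone were separate cells, or 1 cell's RNA captured under more than 1 barcode, was not tested and cannot be told apart in these tables.

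**Figure D1:**
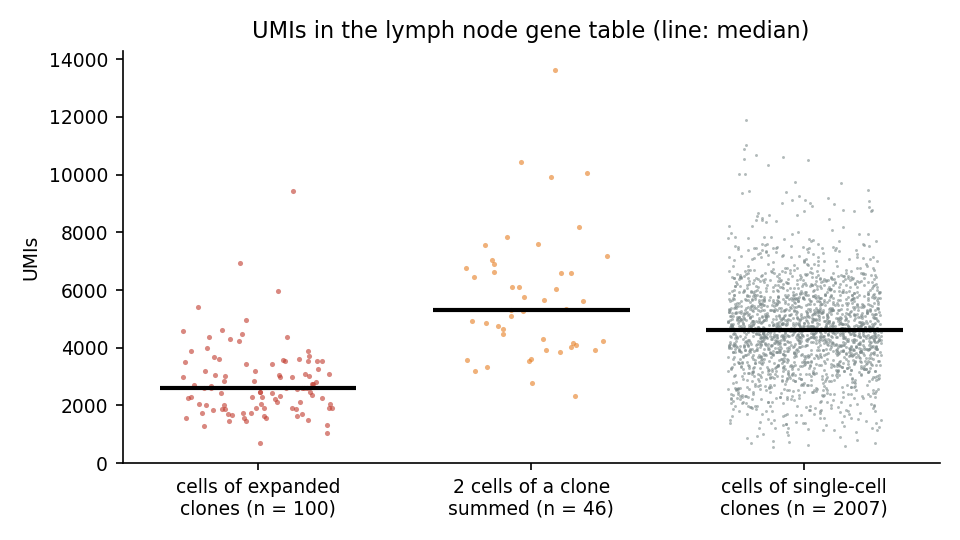
UMIs in the lymph node gene table (vertical axis) for each cell of an expanded clone, for the 2 cells of a clone added together, and for each cell of a single-cell clone; points are cells or clones and lines are medians. The medians are 2592.5, 5324 and 4606 UMIs, so the median sum of a pair lies nearer to the median of single-cell clones than the median expanded cell does.

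The first question was which genes were higher or lower in expanded clones. The transcriptomes of both sides were close, and 1 gene stood far apart. UMIs were summed over each side (281717 in expanded and 9313390 in single-cell clones), expressed as CPM (counts in every 1000000 UMIs of that side), and compared as a log2 ratio with 1 CPM added to both sides. A gene was measured at 25 CPM or more over both sides. Of 4118 measured genes, 43 were higher by a log2 ratio of 1 or more (1.04%) and 73 were lower by as much (1.77%). The median log2 ratio was 0.04 (quartiles -0.19 and 0.31), and 79.1% of genes lay within 0.5 of 0. The median measured gene had 17 UMIs on the expanded side and an interval of about 0.75 to either side on the log2 scale, so many ratios past the fold lie within counting error of smaller ones. When a clone was defined by the TRB sequence alone, which raised the expanded side to 232 cells and 724785 UMIs, 3 genes were higher past the fold and 4 were lower. These were AY036118, Hist1h1e (1.01) and Usp24 (1.01) above, and Mrpl53 (-1.26), Trbv20 (-1.14), Acadvl (-1.13) and Fbxl6 (-1.05) below.

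**Figure D2:**
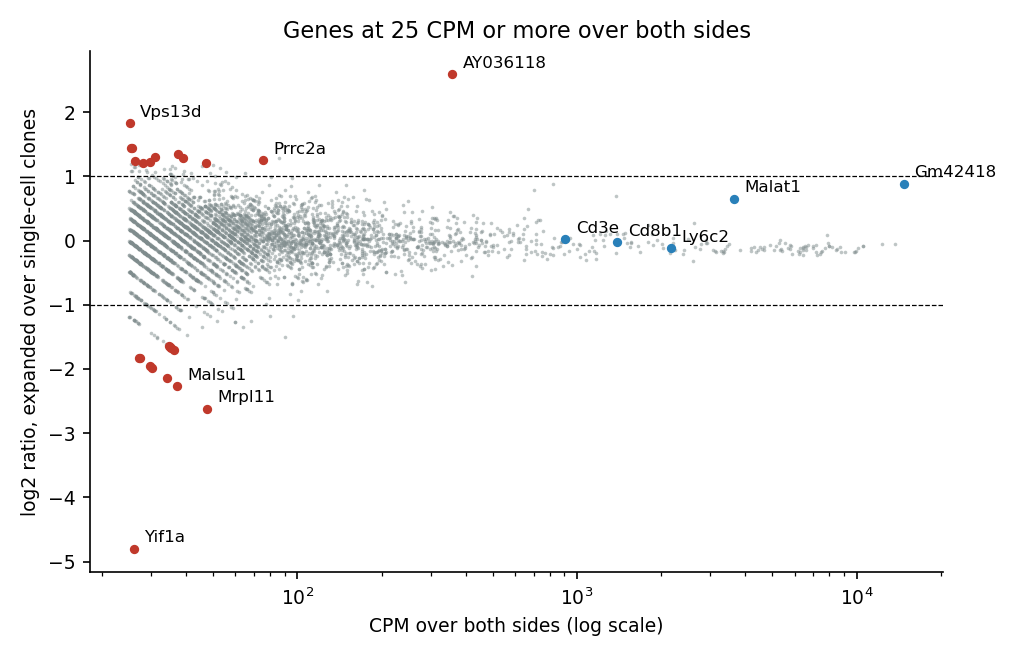
Log2 ratio of expanded over single-cell clones (vertical axis) against CPM over both sides (horizontal, log scale) for the 4118 measured genes; red points are the 12 highest and 12 lowest named genes, blue points other genes described, and dashed lines the fold of 1. The cloud narrows as CPM grows, and AY036118 at 2.59 lies apart from genes of similar level.

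AY036118 was the gene with the highest log2 ratio in expanded clones. GENCODE M21 lists it as a lincRNA on chromosome 17 (chr17:39847113-39848035, build mm10, minus strand), inside the gene Gm42418 on the opposite strand; this stretch is known to overlap a repeat unit of 45S ribosomal RNA. AY036118 had 529 UMIs on the expanded side and 2904 on the single side, or 1878 against 312 CPM, a log2 ratio of 2.59 (2.45 to 2.72). Per expanded clone its level ran from 0 through a median of 1532 to 7845 CPM. Per cell of single-cell clones it ran from 0 through 156 to 69579 CPM. The ranges overlapped, but 47 of 52 expanded clones lay above the single-cell median, and 49 had at least 1 UMI. It was seen in 89.0% of expanded cells (81.2 to 94.4) and 53.3% of the others (51.1 to 55.5), and at a depth thinned to 1500 UMIs in 84.0% and 26.0%. A level of 1000 CPM was reached by 67 of 100 expanded cells and by 122 of 2007 others (6.08%). In clone 1, the 3 cells had 22, 13 and 3 UMIs of AY036118, while both cells of clone 2, the deepest clone, had 0.

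The difference in AY036118 was present within bins of depth. Cells with 1500 to 2500 UMIs had 2262 CPM in expanded and 547 CPM in single-cell clones, cells with 2500 to 3500 UMIs 2015 and 460 CPM, and cells with 3500 to 4500 UMIs 1791 and 239 CPM. The gap was smallest above 6000 UMIs, at 367 and 285 CPM, where the expanded side had 2 cells. Within 1500 to 3500 UMIs the ratio of CPM was 4.44, against 6.02 over all cells. Lymph node cells of clones also in skin, which were as shallow, had a median of 0 CPM (highest 3639). Of these 28 cells, 20 were the only lymph node cell of their clone. The 28 cells also differed in composition, with a median of 21.8% ribosomal protein UMIs against 38.4% in expanded cells. Across the other definitions of a clone and of its cells the ratio of AY036118 CPM lay between 4.70 and 6.29. With the TRB alone the log2 ratio of AY036118 was 2.60 (2.51 to 2.70) on 1254 UMIs.

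**Figure D3:**
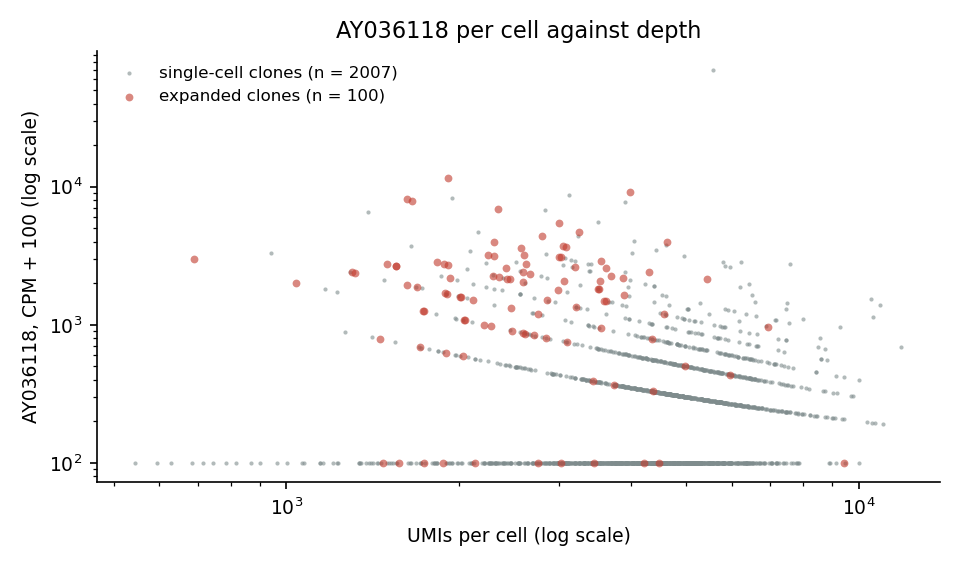
AY036118 per cell (CPM with 100 added, log scale) against UMIs per cell (log scale); red points are the 100 cells of expanded clones and gray points the 2007 cells of single-cell clones. Expanded cells lie above most single-cell clones of the same depth, and the curved lines of points are cells with 1, 2 or 3 UMIs of the gene.

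Gm42418, Gm26917 and Malat1, noncoding RNAs chosen after their values were seen, are described beside it. Gm42418, on the opposite strand over AY036118, had 26683 CPM in expanded and 14426 CPM in single-cell clones (log2 ratio 0.89). Clone levels of Gm42418 ran from 3959 through 14170 to 266438 CPM, and without the clone with most of its UMIs the ratio was 0.31. The sources used here do not say whether counting used strand, so reads of Gm42418 and AY036118 cannot be told apart. Gm26917, in the same stretch (chr17:39843013-39846341, plus strand), had a log2 ratio of 0.88, and 0.56 without its top clone. Malat1, an abundant RNA retained in the nucleus, had 5640 and 3585 CPM (0.65), and 46 of 52 clones lay above the single-cell median. For Malat1 the ratio was 0.10 among cells of 1500 to 3500 UMIs. There its levels were 6150 and 5736 CPM, those of Gm26917 1752 and 667 CPM, and those of Gm42418 21422 and 13314 CPM. In this window Malat1 was thus nearly level, and AY036118 was not. Depth was nearer there but not equal, with medians of 2348.5 UMIs in expanded and 2873 in single-cell clones.

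The other 11 highest genes rested on few UMIs each, between 17 and 49 on the expanded side. Vps13d, a lipid transfer protein at organelle contacts, had 24 UMIs against 217, or 85.2 and 23.3 CPM (log2 ratio 1.83), in 16 of 52 clones. Pitpnb, a phosphatidylinositol transfer protein, and Slc29a1, a nucleoside transporter, were both at 1.44. Zeb1, a zinc finger transcription factor that represses Il2, was at 1.35 (0.74 to 1.95) with 26 UMIs in 22 clones. Zeb1 was seen in 17.0% of expanded and 4.67% of other cells after thinning. Prrc2a, an RNA-binding protein, was the best sampled of these, with 49 UMIs against 676 and a log2 ratio of 1.25 (0.81 to 1.68). Usp19, a deubiquitinase, was at 1.30, Psd4, an exchange factor for Arf6, at 1.28, Med17, a Mediator subunit, at 1.23, Iars2, a mitochondrial tRNA synthetase, at 1.22, and Baz2a, a chromatin factor of ribosomal DNA silencing, and Pea15a, a death effector domain protein, at 1.21. With the TRB sequence alone none of these 11 was past the fold: Vps13d was at 0.91, Zeb1 at 0.64 and Prrc2a at 0.99. Among cells of 1500 to 3500 UMIs Vps13d was at 1.58 and Prrc2a at 0.74.

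The 12 lowest genes had 0 to 3 UMIs on the expanded side. Yif1a, which acts in transport from the endoplasmic reticulum to the Golgi, had 0 UMIs against 250 and was at least 2.52-fold lower when 3 UMIs over the expanded side are taken as the floor; the exact interval ends at a log2 ratio of -1.02. Mrpl11, a protein of the large mitochondrial ribosomal subunit, had 2 UMIs against 454, or 7.10 and 48.7 CPM (log2 ratio -2.62, with a counting interval of -5.83 to -0.92). Malsu1, an assembly factor of the same ribosome, had 2 against 353, both from 1 clone. The next genes had 2 UMIs each: Faap20 of the Fanconi pathway, Ift27 of intraflagellar transport, Mdm2, the ubiquitin ligase of p53, Magohb of the exon junction complex and Mthfd1 of folate metabolism, with log2 ratios from -2.15 to -1.83. Hikeshi, a nuclear import factor, Pym1, which takes the exon junction complex apart, H2-DMa, a class II peptide loading chain, and 0610030E20Rik had 3 each (-1.70 to -1.65). None of the 12 was past the fold with the TRB sequence alone.

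The second question was whether programs of CD8 T cell memory, effector function or activation differed. Few of their genes were past the fold, as among all measured genes, so these counts do not set the programs apart. In the 16 lists described here 2 measured members were past the fold, both higher. They were 1 of 3 in the anergy-associated list and 1 of 14 in the immediate early list. The other lists had 0, with 3 to 17 measured members each. Of all measured genes 1.04% were higher and 1.77% lower past the fold. List medians ran from -0.20 to 0.42 beside 0.04 for all genes. The summed ratio of 14 of the 16 lists turned direction in at least 1 alternative setting, cell cycle and cytokine signalling being the exceptions, and so did the ratio of 38 of 91 named genes, so small ratios below show no direction. The genes of the sort had these levels: Cd3e was at 923 and 908 CPM, Cd8a at 589 and 538 CPM, Cd8b1 at 1370 and 1395 CPM, and Cd44 at 85.2 and 66.7 CPM (0.35, -0.30 to 0.94). Cd4 was not analysed here.

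Memory genes had 0 of 16 measured members past the fold in the stem-like list, 8 above and 8 below 0, with a median of 0.00 and a log2 ratio of summed counts of 0.08 (0.00 to 0.16). Tcf7, the transcription factor of stem-like memory, was at -0.07, and Ccr7 and Il7r, receptors of lymph node homing and of survival, at -0.05 and 0.10. S1pr1, the receptor for egress from lymph nodes, was at 227 and 134 CPM (0.75, 0.37 to 1.12), with a UMI in 34 of 52 clones. Dapl1 was at 273 and 173 CPM (0.65, 0.31 to 0.99), but 0.34 without the clone with most of its UMIs and -0.14 with the TRB alone. Lef1, a transcription factor related to Tcf7, was at 0.45. The lowest members were Eomes (-0.36) and Id3 (-0.32). In the virtual memory list 0 of 8 measured members were past the fold (median 0.19, summed 0.03). Ly6c2 was at 1991 and 2167 CPM (-0.12) and Il2rb, the receptor chain for IL-15, at 0.34. Cd5, an inhibitor of receptor signalling, was at 0.53 and the NK receptors Klra7 and Klra3 at 0.71 and -0.32, on 14 and 6 UMIs. The list of NK receptors had 0 of 5 past the fold (median -0.01).

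Effector and cytotoxic genes also had no member past the fold (0 of 9 and 0 of 10 measured; medians 0.02 and 0.01). Ccl5, an effector chemokine, was at 2538 and 2499 CPM (0.02, -0.09 to 0.13), and Nkg7, a granule protein, at 1171 and 1164 CPM (0.01). Prf1, perforin, was at 0.28 and the granzymes Gzma and Gzmb had 2 and 1 UMIs on the expanded side, under the minimum. Ahnak, a large scaffold protein, was at 0.56 (0.25 to 0.85) with a UMI in 36 clones, and Anxa2 at -0.38. Of the residency list, 0 of 8 were past the fold (median 0.11). Rgs1, an inhibitor of G protein signalling, was at 0.57, Inpp4b, a lipid phosphatase, at 0.53 and Itgae, the CD103 integrin chain, at -0.03. Xcl1, a chemokine that attracts cross-presenting dendritic cells, was the lowest member at 60.3 and 105 CPM (-0.78, -1.58 to -0.11), on 17 UMIs. Chemokine receptors had 0 of 4 past the fold (Cxcr6 at 0.42, Cxcr3 at 0.04), and cytokines and chemokines 0 of 6 (Tgfb1 at 0.58, Ccl4 at -0.57, or 0.48 with clones weighted equally).

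Genes that report recent receptor signalling were mostly too thin to compare. In the early response list 3 of 16 genes were measured and 0 of these were past the fold: Myc was at 117 CPM on both sides (0.01), Cd69 at 0.02 and Nfatc1 at 0.14. Nr4a1, the usual reporter of receptor signalling, had 1 UMI against 31, with an interval of -5.26 to 2.68, and Egr1 2 against 107 (-3.76 to 1.19). Of inhibitory receptors 0 of 3 were past the fold (Tox at 0.56, Cd160 at -0.22), and Pdcd1, which encodes PD-1, had 3 UMIs. The anergy-associated list had 1 of 3 past the fold: Cblb, a ubiquitin ligase that restrains receptor signalling, was at 110 and 48.2 CPM (1.17, 0.62 to 1.72) with a UMI in 21 clones. For Cblb the log2 ratio was 0.46 among cells of 1500 to 3500 UMIs and 0.63 with the TRB alone. The immediate early genes had 1 of 14 past the fold, Ppp1r15a, a regulatory subunit of a stress phosphatase, at 1.06 (0.51 to 1.59). For Ppp1r15a the ratio was 0.76 without the clone with most of its UMIs, 0.95 with clones weighted equally and 0.59 with the TRB alone. Jund was the lowest, at 156 and 245 CPM (-0.65, -1.12 to -0.22), and Fos was at -0.50 and Junb at -0.02.

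Interferon response genes had 0 of 14 past the fold, 11 of them above 0, with a median of 0.14 and a summed ratio of 0.15 (0.01 to 0.27), which was -0.25 among cells of 1500 to 3500 UMIs. Zbp1, a sensor of nucleic acids, was at 0.72, Ifit3 at 0.49 (-0.10 with clones weighted equally), Bst2 at -0.47 and Ifit1bl1 at -0.56. Cytokine signalling had 0 of 17 past the fold and 13 above 0 (median 0.26, summed 0.12, 0.03 to 0.21), with Stat5b at 0.77, Il18rap at 0.49, Ifngr1 at 0.44 and Bcl2 at -0.24. The cell cycle list had 0 of 11 past the fold and the lowest median, -0.20 (summed -0.11, -0.22 to 0.01). Pcna and Mcm7, of DNA replication, were at -0.63 and -0.64, Hmgn2 at 0.45 and Mcm3 at 0.43. Mki67, the proliferation marker, had 0 UMIs on the expanded side and 46 on the other. At the depth of the expanded side 0 UMIs allow up to 10.6 CPM, which is above the 4.94 CPM of single-cell clones, so a difference was not detectable at this depth.

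**Figure D4:**
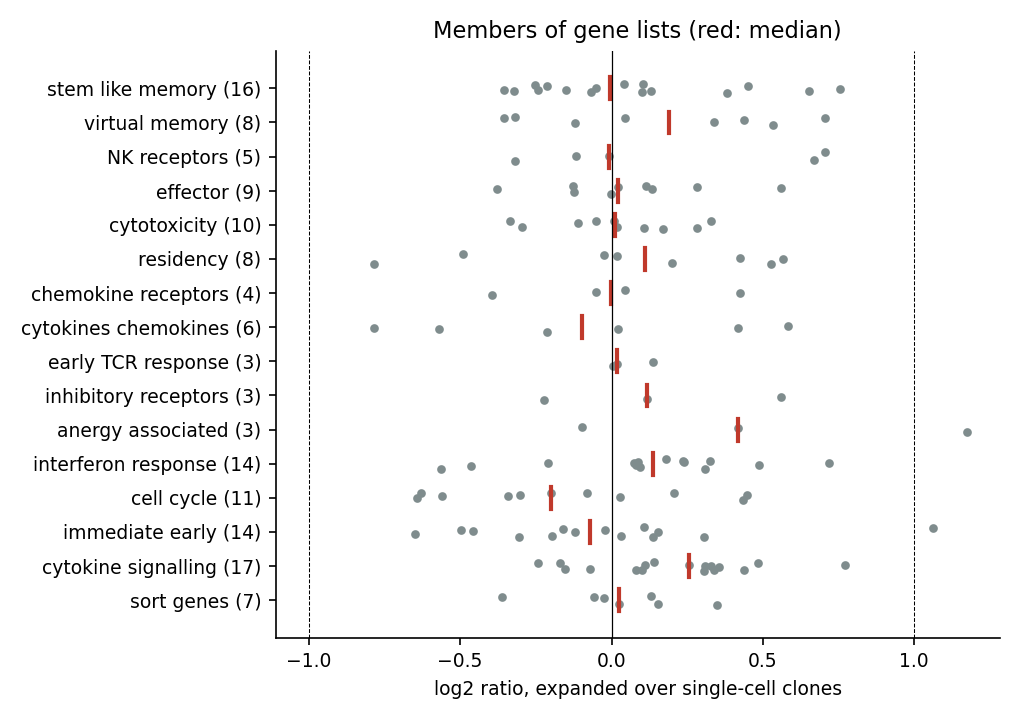
Log2 ratio of expanded over single-cell clones (horizontal axis) for the measured members of 16 gene lists, with the number measured in brackets; gray points are genes, red lines are list medians and dashed lines mark the fold of 1. List medians lie between -0.20 and 0.42, and 2 points, Cblb and Ppp1r15a, lie past the fold.

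Markers of other cell types were summed on each side. B cell markers (7 of 10 analysed) summed to 241 and 226 CPM, mostly Ighm at 146 and 175 CPM. Cd79b was at 1.08 on 15 UMIs, and Cd74, under the minimum, at 35.5 and 16.1 CPM on 10 UMIs. On the expanded side Ighd and H2-Aa had 1 UMI each, and H2-Ab1 and H2-Eb1 were at 0. Myeloid markers (2 of 11 analysed) summed to 78.1 and 83.3 CPM, with Lyz2 at 0. CD4 T cell markers (5 of 7 analysed) summed to 88.7 and 57.9 CPM, of which Icos, also an activation gene of CD8 T cells, was at 1.11 on 20 UMIs. Cd40lg was at 14.2 and 5.05 CPM on 4 UMIs and Ikzf2 at 3.55 and 14.7 CPM on 1 UMI, while Il2ra and Zbtb7b were at 0. NK markers (3 of 6) summed to 71.0 and 95.5 CPM, with Tyrobp at 0, markers of iNKT and MAIT cells (2 of 6) to 31.9 and 16.8 CPM on 9 and 156 UMIs, and keratinocyte markers (2 of 7) to 10.6 and 16.1 CPM. The members named at 0 were at 4.83 CPM or less in single-cell clones. On the expanded side 0 UMIs allow up to 10.6 CPM, so a difference in these members was not detectable at this depth. The part of the markers in the ratios was not tested.

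The genes past the fold differed in transcript length. The longest GENCODE M21 transcript had a median of 4072 bases among genes higher in expanded clones, 2431 among genes lower, and 3016 among all 4095 measured genes with a length. With genes ordered by length into 5 equal bins, the median log2 ratio went from -0.09 in the shortest (204 to 1627 bases) through 0.02, 0.09 and 0.09 to 0.15 in the longest (5013 bases or more). Vps13d, at 15849 bases, and Ahnak, at 18100 bases, are among the long ones, and Mrpl11 has 3045 bases. Among cells of 1500 to 3500 UMIs the medians were -0.12, -0.08, -0.04, -0.04 and -0.05, so the spread over length was smaller in that window. In thinned cells they ran from -0.10 to 0.15. Thinning draws UMIs at random within a cell and keeps the expected share of each gene there. It therefore cannot show whether the spread goes with depth.

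The third question was how alike the cells of 1 clone were, compared with cells of different expanded clones. There were 49 pairs of cells within a clone, from 47 clones, and 4901 pairs between clones. In each pair the counts of genes with 10 or more UMIs over both cells were set against an equal composition by a chi-square per gene, for which counting noise alone gives about 1. AY036118 and receptor, mitochondrial and ribosomal protein genes were left out, which left a median of 21 genes per pair within clones and 23 between. Gm42418, which overlaps AY036118, and Gm26917 and Malat1 were not left out, and their part in these values was not tested. The median was 1.60 (0.652 to 6.96) within clones and 2.62 (0.214 to 30.6) between, and 45 of 49 pairs within clones lay below the median of the others. A value under 1.2 was found in 13 of 49 pairs within clones (26.5%) and 248 of 4901 between (5.06%), and 4 pairs within clones were above 3. The cells of a clone were also nearer in depth, the deeper holding a median of 1.19 times the UMIs of the other, against 1.46 between clones. The part of depth in the likeness was not tested. Cells of a clone also come from 1 mouse, whereas pairs between clones may not. The number of mice is not stated, so the part of the mouse in the likeness cannot be told apart. Cell barcodes of a clone were no nearer to each other than those of different clones, differing at a median of 12 of their bases in both cases and at 9 or more within clones.

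**Figure D5:**
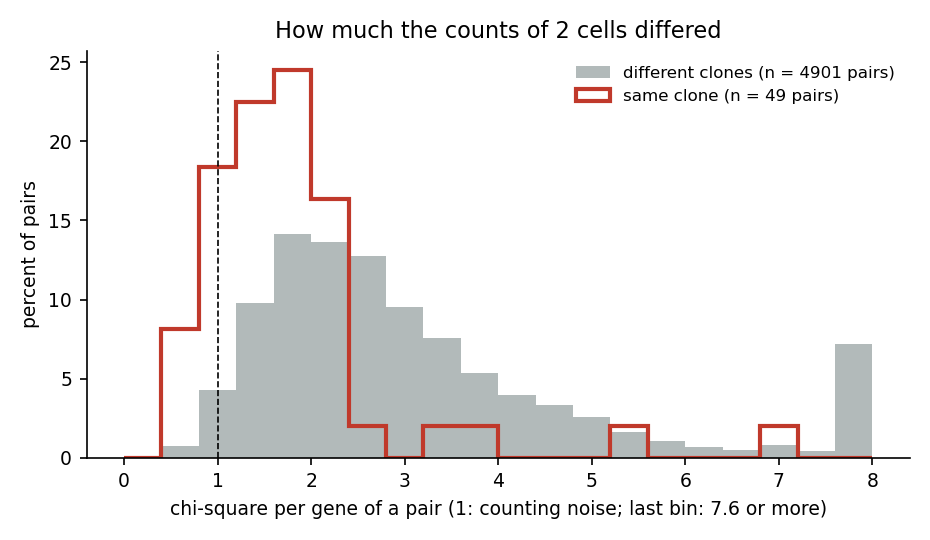
Percent of pairs (vertical axis) by chi-square per gene of the 2 cells' counts (horizontal axis) for 49 pairs of cells of 1 clone (red outline) and 4901 pairs of different expanded clones (gray); the dashed line at 1 is the level of counting noise and the last bin holds all higher values. Pairs of 1 clone lie to the left, with medians of 1.60 and 2.62.

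Single genes differed in how often both cells of a pair agreed. Dapl1, in the stem-like memory list, had a UMI in both cells of 14 pairs, in neither of 29 and in 1 cell only of 6, so 87.8% of pairs were alike against 55.7% between clones. After thinning these were 83.7% and 62.4%. Ly6c2, which marks memory CD8 T cells in C57BL/6 mice, was in both cells of 38 pairs, in neither of 5 and in 1 cell of 6, or 87.8% against 71.3%. Vim, an intermediate filament gene, was alike in 85.7% against 60.9%, S100a6 in 77.6% against 54.4%, Il7r in 73.5% against 52.2%, and the interferon gene Ifi27l2a in 69.4% against 49.4%. Before thinning, housekeeping genes stood as high: Cox7b, of the respiratory chain, was alike in 71.4% against 49.5% and Hnrnpr, an RNA-binding protein, in 83.7% against 64.0%. After thinning these gaps were small, at 58.1% against 56.1% for Cox7b and 83.7% against 80.8% for Hnrnpr. Those of Vim (72.1% against 53.1%), Il7r (67.4% against 49.3%), Ifi27l2a (67.4% against 50.8%) and Ly6c2 (83.7% against 68.6%) were wider, and S100a6 lay between (76.7% against 66.0%). These genes were chosen after their values were seen, from 3155 genes whose median difference before thinning was 0.934 percentage points. Over the 101 list genes among them it was 5.19. Summed over a list, the median difference between the 2 cells (absolute, log2 scale) was smaller within clones in 14 of 16 lists, and in 12 after thinning. It was 0.634 within against 1.10 between clones for effector genes, 0.676 against 1.13 for interferon response and 0.374 against 0.796 for virtual memory. The exceptions were the cell cycle (0.618 against 0.512) and cytokine signalling, nearly equal at 0.587 and 0.585. At the equal depth of thinned cells the gap for virtual memory was small (0.678 against 0.737), both exceptions were smaller within clones, cytotoxicity was larger (0.737 against 0.678) and 3 lists were equal.

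Cells of a clone and cells of different clones were compared by transcriptional cluster. With 7 clusters of all 3266 cells, 21 of 49 pairs (42.9%, 28.8 to 57.8) shared one, against 979 of 4901 pairs between clones. With 4 clusters the shares were 46.9% (32.5 to 61.7) and 36.6%, and with 14 clusters of cells thinned to 1500 UMIs they were 16.3% (6.81 to 30.7) and 9.38%. The share between clones thus lay outside the interval with 7 clusters and inside it in the other clusterings. Of the 21 pairs that shared 1 of the 7 clusters, 8 were in cluster 6, led by Nthl1, 2010320M18Rik and Phkb. Another 5 were in cluster 2, led by 2010016I18Rik, Gm43065 and Apc. Clusters 0, 3 and 4 held 2 pairs each, and clusters 1 and 5 held 1 each. Clone 1 had its 3 cells in cluster 6. Clone 37 had both cells in cluster 5, led by Lgals3, S100a4, Gzma and Gzmb, which include effector genes, and these were the 2 expanded cells in that cluster. Clone 19 and clone 24 each had both cells in cluster 3, led by the interferon genes Isg15, Ifit1 and Ifit3. Clone 10 had both in cluster 0, led by Klra7, Klre1 and Klra6, and clone 2 both in cluster 4, led by Izumo1r and Nrn1, genes linked to anergy. The chi-square per gene was 5.21 in clone 10 and 3.33 in clone 37, both among the 4 pairs within clones above 3. For these clones the counts of the cells were thus less alike than in most pairs, although they shared a cluster. Expanded clones were thus found in every one of the 7 clusters, but not evenly, beside 100 expanded cells among all 3266. Their cells were 11 of 639 in cluster 0, 8 of 391 in cluster 1, 27 of 569 in cluster 2 and 11 of 252 in cluster 3. In clusters 4, 5 and 6 they were 10 of 414, 2 of 210 and 31 of 791.

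The last question was how the receptors of expanded clones were built. The shared CDR3 sequence holds the ends of the V and J segments, so the rule itself largely fixes their names within a clone, and these counts only describe the tables. The TRBJ, TRAV and TRAJ segments were the same in every cell of 52 of 52 clones and the TRBV segment in 51, the other being listed as TRBV12-2 with TRBV13-2 in one cell and TRBV13-2 alone in another. A second TRA was found in some cell of 9 clones but in every cell of 3, and of these 3 the second sequence was the same in 1. Cells with 2 TRA sequences made up 11.4% of expanded and 12.2% of single-cell clones. Receptor contigs were shallow, with a median of 6 and 7 UMIs for TRB and 2 and 3 for TRA, so a second TRA can be missed.

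Between the sides the receptor features below showed no clear difference, with wide intervals on 52 expanded clones. The CDR3 had a median of 14 codons in both chains on both sides. Bases in neither germline segment numbered a median of 10 and 9 in TRB, and 2.5 and 3 in TRA. Joints with 0 such bases in TRA were found in 6 of 52 expanded (11.5%, 4.35 to 23.4) and 16.8% (15.3 to 18.4) of single-cell clones. The V segment with most expanded clones was TRBV12-2, in 6 of 52 (11.5%, 4.35 to 23.4) against 8.66% (7.56 to 9.85) of single-cell clones. TRBV3 followed with 9.62% against 7.87% and TRBV1 with 7.69% against 4.87%. TRBV13-3 had 7.69% against 6.45%, and barcodes listed with both TRBV12-2 and TRBV13-2 had 7.69% against 9.53%. In TRA, TRAV12D-3 had 9.62% (3.20 to 21.0) against 5.16% (4.31 to 6.12), TRAV3D-3 5.77% against 4.29%, and TRAV13-1, TRAV13D-2 and TRAV14N-3 3.85% each against 4.16%, 2.21% and 1.37%. Every interval of the expanded clones held the value of the single-cell clones for these 10 segments.

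The V segment of a cell's contig could be compared with its UMIs in the gene table. For 18 Trbv genes, a median of 99.0% of cells whose contig used the segment had a UMI of that gene. Trbv5 was the lowest at 84.8%. Among all other cells the median was 1.98% (0.768 to 17.8%). The 17.8% was for Trbv13-2, whose other cells include those listed with both TRBV12-2 and TRBV13-2. The same holds for Trbv12-2, at 6.45%. Of 85 expanded cells whose contig used 1 of the 18 segments, 83 had a UMI of that gene. Trbv15 was past the fold as a gene (1.29), with 57 UMIs in 6 of the 52 clones, of which 21 were from 1 clone, and the contigs gave TRBV15 to 3 clones. Trbv26 (1.23) had 18 UMIs in 3 clones, and contigs gave TRBV26 to 2. Both genes were named after their values were seen.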

How the data were processed

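The authors deposited a lymph node table of raw UMI counts, with genes as rows and cells as columns, and tables of assembled receptor contigs with read and UMI counts per tissue. Lanes are pooled in the deposited files. Bowtie, RSEM and mm10 are named in the submitters' processing notes, without version or role. The gene table had been reduced before deposit: no cell has over 4.99% mitochondrial counts or over 2992 genes, and every gene is in at least 14 cells. Doublets were not called again; barcodes with more than 1 TRB have no clone. Skin receptors served to leave out shared clones: 12 barcodes are in both receptor tables, 3 with a clone in both, 0 with the same clone, and 0 expanded cells are among them. Skin RNA was not analysed here.

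Productive, full-length TRA and TRB contigs were used, and equal UMIs of 2 TRA (79 cells) were settled by alphabetical order. The log2 ratio has a prior of 1 CPM, whereas its interval is the exact conditional interval of the ratio of counts without a prior. Shares carry Clopper-Pearson intervals. Per cell, list levels are UMIs plus 1 over the cell's total. Thinning drew 1500 UMIs per cell and left out 6 expanded and 39 other cells. Clusters are Leiden clusters (scanpy 1.11.5, igraph 0.11.9; 2000 variable genes, 30 components, 15 neighbours, resolution 1). The named genes are the 12 highest and 12 lowest ratios among measured genes that 10% or more of the higher side's cells had a UMI of, and of the same direction with clones weighted equally and without the gene's top clone, without receptor, immunoglobulin, mitochondrial and ribosomal protein genes. To these were added the 2 highest and 2 lowest measured members of each list, the sort genes and the 5 TRBV and 5 TRAV segments with most expanded clones, ties at the end taken in alphabetical order; list genes of known role are added for context. Some of the genes these rules name are not reported here. The comparison was tested on simulated data, which held summed counts with known ratios and counting noise only. Variation between cells or clones was not simulated. Members, lists and rules were chosen with earlier results of these data known. Python 3.11.15, numpy 2.4.6, scipy 1.17.1, pandas 2.3.3 and matplotlib 3.10.9 were used.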

Additional observations from a re-analysis of the deposited data

How the results depend on the processing

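No paired analysis was possible because the lane numbers shared by the groups mark lanes of 1 library, which are pooled in the tables, and no result came from a test. The counts of genes past the fold (43 higher, 73 lower) were 16 and 26 with a prior of 10 CPM, 533 and 972 over all 9428 genes with at least 1 UMI, 116 and 240 in thinned cells, 137 and 403 with contigs of 3 or more UMIs (28 expanded cells), and 3 and 4 with the TRB alone. With exactly 1 TRA per cell the lower count was 116. Among alternatives chosen after seeing the data, they were 78 and 377 in cells of 1500 to 3500 UMIs, and 66 and 207 with the deeper cell of each expanded clone. Other scalings, equal clone weights, leaving out clone 1, keeping clones also in skin and settling ties by reads gave 36 to 51 higher and 53 to 99 lower. Pea15a (-0.42) and Trbv15 (-3.16) were lower in expanded clones with contigs of 3 or more UMIs, and the cause was not tested. Of 91 named genes, 38 turned direction in at least 1 setting, 36 of them with a main ratio short of the fold, such as Il18rap, Rgs1, Fos, Pcna and Mcm7. AY036118 stayed between 2.15 and 2.65. Median UMIs of expanded cells were 2581 to 3375.5 over clone definitions. The share of pairs in 1 cluster was 16.3% in thinned cells. Most genes had under 20 UMIs on the expanded side, which limits every ratio.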

Other observations

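Cells without a TRA contig were outside the clone rule, and their TRB sequence allows a like comparison. In 54 such cells the TRB was found in 2 or more lymph node cells. They held a median of 2717 UMIs (547 to 5840) and 1410 CPM of AY036118. In 388 such cells with a TRB found once, the medians were 4217 UMIs (658 to 8306) and 0 CPM. The 44 cells of single-cell clones whose TRB was shared with another clone held a median of 3942 UMIs and 367 CPM of AY036118, between the expanded and the other cells.

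In the cell cycle list, members under the minimum of 25 CPM had few UMIs in expanded clones, and they are named after their values were seen. Stmn1 had 1 UMI against 236 (3.55 and 25.3 CPM), and Mcm5 had 0 against 186, where 0 UMIs allow up to 10.6 CPM on the expanded side. Tyms had 14.2 and 8.38 CPM, Cks1b 17.7 and 10.1 CPM and Rrm1 17.7 and 14.5 CPM, in the opposite direction, on 4 or 5 UMIs each. Lgals3, an effector gene under the minimum, had 0 UMIs against 97 (10.4 CPM), a difference not detectable at this depth, and cluster 5, which it leads, held both cells of clone 37.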
